A study of Mus musculus with 4 samples.

Results

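Liver gene expression after a 6 h infusion of propionate into the cecum was compared with that after an infusion of phosphate-buffered saline. The comparison rests on 1 array for each pool, the log2 ratio of the propionate array to the control array was taken for each gene, and genes were kept where the mean of all 4 arrays of the series reached the median of the gene means. This level floor was 5.55 on the log2 scale, and 9410 of 18820 named genes met it. The nearest genes inside were Armcx1, Nmnat3 and Tha1, and the nearest outside were Slc30a3, Prmt6 and Acap1.

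All animals were male C57Bl/6J mice aged 16 to 17 weeks, fed a semi-synthetic diet with palm oil for 6 weeks, fitted with a permanent cecal catheter and given at least 5 days to recover. Propionate was infused at 0.2 ml/h as a 0.3 M solution of sodium [2-13C]propionate, which gave 2.4 mmol/h/kg, and the controls received phosphate-buffered saline at that pump rate. Mice were awake, and had been fasted that morning. Liver RNA of 6 propionate mice was pooled at 500 ng per mouse for one array and liver RNA of 6 control mice for the other. The acetate pool (6 mice) and the butyrate pool (4 mice), whose acids were infused as sodium salts at the same molarity and rate, served only to show where a level lay among the 4 pools. Pooling leaves no spread between mice, so no ratio below has a replicate check, a standard error or a p-value. The control solution held no sodium salt of a fatty acid, so propionate and its sodium load cannot be told apart here.

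Propionate is a 3-carbon acid made by gut bacteria and carried to the liver by the portal vein. There it is activated to propionyl-CoA, carboxylated by propionyl-CoA carboxylase, and turned by an epimerase and the cobalamin-dependent mutase into succinyl-CoA, from which glucose can be made. The liver is also a secretory organ: hepatocytes fold and glycosylate plasma proteins in the endoplasmic reticulum (ER), and its sinusoids house Kupffer cells, the resident macrophages.

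The material read mainly as liver in both pools, with hepatocyte markers at a mean level of 12.9 in each. Pancreatic acinar markers were measured too, at mean levels of 9.44 in the control pool and 8.83 with propionate. All 17 measured hepatocyte markers lay above the floor, with ratios between -0.10 and 0.067 and a median of -0.00070. Endothelial markers had a median of 0.0087 over 15 genes. The median ratio was -0.0075 over all named genes and -0.034 over the 9410 at or above the floor, of which 60.8% lay below the control by any amount. The authors' normalization makes the arrays' distributions alike, and their medians ran from 5.11 to 5.12. In RNA from whole liver, fewer cells of a type and less RNA per cell cannot be told apart.

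Most genes were close in the 2 pools. Of the genes at or above the floor, 67.9% lay within 1.1-fold of the control, and the ratios had an SD across genes of 0.17. At least 1.5-fold higher with propionate (0.58 on the log2 scale) were 66 genes, or 0.701%, and at least 1.5-fold lower were 38, or 0.404%. Over all 18820 named genes, where more levels are near background, these counts were 146 (0.776%) and 92 (0.489%). The 2-fold mark was reached by 7 higher and 4 lower genes. The nearest genes to 1.5-fold were Ccl5 (0.59) inside it and Ccr7 (0.58), Hspa5 (-0.58) and Sec23b (-0.58) outside. In 36 of the 66 higher genes and 26 of the 38 lower genes the propionate level lay outside the range of the other 3 pools, while the control level lay outside the range of the other 3 in 46 and 35. The higher genes were led by a cytochrome P450 and included genes of macrophages and of dividing cells. The lower genes were led by the monooxygenase-like gene Moxd1 and the ER factor Creld2, and included digestive enzymes of the exocrine pancreas.

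**Figure D1:**
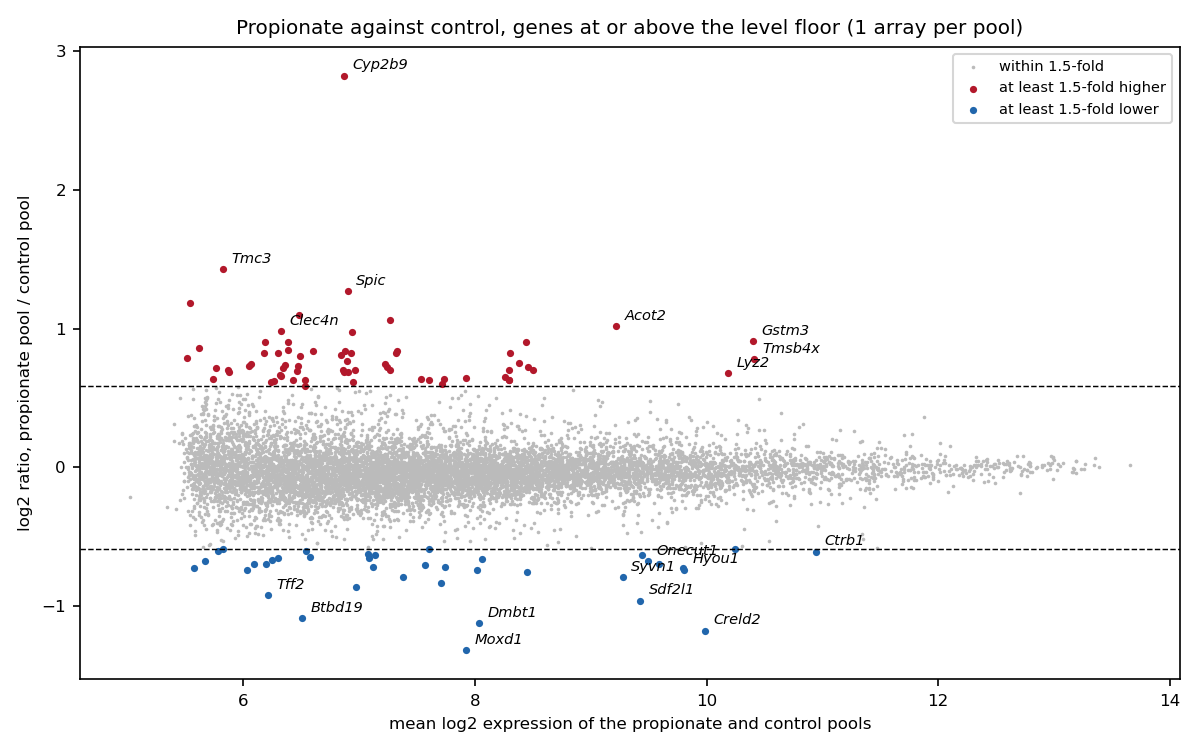
Log2 ratio of the propionate to the control pool (y axis) against the mean log2 level of the 2 pools (x axis) for the 9410 genes kept; each point is 1 gene, and dashed lines mark 1.5-fold. The 66 genes above the upper line include Cyp2b9 at 2.82, and the 38 below the lower line include Moxd1 at -1.32 and Creld2 at -1.18.

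Folding factors of the ER stood among the lower genes. Creld2, an ER-resident protein released under ER stress, stood at 10.58 in the control pool, 10.01 with acetate, 9.40 with propionate and 10.17 with butyrate. Its propionate level was the lowest of the 4 and its control level the highest, and the ratio of propionate to control was -1.18, or 2.26-fold lower. Sdf2l1, a co-chaperone partner in the ER lumen, was at 9.91, 9.19, 8.95 and 9.07 in the same order of pools (ratio -0.96). Manf, a secreted ER stress factor, was at 8.12, 7.61, 7.28 and 7.81 (-0.84). Hyou1, a large ER chaperone of the HSP70 family, was at 10.18, 9.74, 9.44 and 9.90 (-0.74). Each of these genes had its highest level in the control pool and its lowest with propionate. The major ER chaperone Hspa5, also called BiP, had this order too, at 11.76, 11.50, 11.18 and 11.60, and its ratio of -0.58 fell just short of 1.5-fold.

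Over the list of 28 measured ER chaperones and folding enzymes, all of them above the floor, 26 lay below the control, 4 by at least 1.5-fold and 0 higher by that fold. The median ratio was -0.19 and the mean -0.30. Against the same control, the list medians were -0.099 with acetate and -0.12 with butyrate. The control level was the highest of the 4 pools in 17 of the 28 genes, and the propionate level the lowest in 24. Dnajb9 (-0.45) and Dnajb11 (-0.44), J-domain partners of Hspa5, followed the 5 genes above. The lectin chaperone Canx was at -0.06, and the 2 members above control were the prolyl isomerases Fkbp2 (0.04) and Fkbp11 (0.14). Of all named genes, 52.1% lay below the control, and of those at or above the floor 60.8%.

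Many ER chaperone genes are switched on through the ER stress element, a promoter sequence bound by ATF6 together with NF-Y when unfolded protein builds up in the ER. Promoters of RefSeq genes (GRCm38.p6, 250 bases before to 50 bases after each start) were searched on both strands for its letters, CCAAT, then 9 bases of any kind, then CCACG. The sites below are those of all 11 secretory pathway genes in which the element was found, with 15 bases on each side. They are written 5′ to 3′ along the strand of the gene, and the capitals mark the element from its first to its last base, read on the opposite strand in Creld2, Ero1b, Calr and Derl3 and, for Hsp90b1, in the second of its 2 copies.
Creld2: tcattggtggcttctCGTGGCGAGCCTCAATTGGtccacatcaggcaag
Alg12: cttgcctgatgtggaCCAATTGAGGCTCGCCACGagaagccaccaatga
Syvn1: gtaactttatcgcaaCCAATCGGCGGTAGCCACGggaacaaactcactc
Hspa5: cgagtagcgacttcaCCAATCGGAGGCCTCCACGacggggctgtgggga
Ero1b: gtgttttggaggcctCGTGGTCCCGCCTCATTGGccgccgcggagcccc
Hsp90b1 first: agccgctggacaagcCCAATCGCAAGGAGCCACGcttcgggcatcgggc
Hsp90b1 second: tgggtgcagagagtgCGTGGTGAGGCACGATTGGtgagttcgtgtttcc
Pdia6: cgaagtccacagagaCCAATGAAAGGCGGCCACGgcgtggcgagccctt
Calr: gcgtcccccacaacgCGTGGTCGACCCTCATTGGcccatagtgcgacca
Dnajc3: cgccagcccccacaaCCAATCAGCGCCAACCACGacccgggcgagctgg
Canx: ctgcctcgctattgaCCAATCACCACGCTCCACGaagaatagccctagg
Derl3: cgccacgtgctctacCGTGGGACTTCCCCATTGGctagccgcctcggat

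The Creld2 site lies at chr15:88819505-88819553 on the plus strand, with the element at positions -126 to -108 from the start of transcription. Alg12, a mannosyltransferase of N-glycan assembly, is read away from Creld2 on the minus strand, and its site is the same stretch of the genome, at positions -220 to -202 from its own start. The genes that share this element were at -1.18 (Creld2) and -0.46 (Alg12). The Syvn1 site lies at chr19:6046517-6046565 (element at -44 to -26), and the Hspa5 site at chr2:34772010-34772058 (element at -65 to -47), both on the plus strand. The Ero1b site, for an oxidase that forms disulfide bonds (ratio -0.44), lies at chr13:12565667-12565715. Hsp90b1, the ER member of the HSP90 family (-0.29), has its copies at chr10:86705623-86705671 and chr10:86705518-86705566 on the minus strand. The disulfide isomerase Pdia6 (-0.19) has its site at chr12:17266476-17266524 and the J-domain protein Dnajc3 (-0.14) at chr14:118937812-118937860, both on the plus strand. The lectin chaperone Calr (-0.16) has its site at chr8:84847060-84847108 on the minus strand. The Canx site lies at chr11:50325785-50325833 on the minus strand and the Derl3 site at chr10:75893227-75893275 on the plus strand. Canx (-0.06) and Derl3 (0.06) carry the element too and were close to the control.

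The element was found in 39 of 32851 promoters, or 0.119%, and in 15 of 7608 genes at or above the floor that are in the promoter table, or 0.197%. Among ER chaperones it was found in 8 of 23 genes with a promoter in the table (34.8%), and among degradation factors in 2 of 16. Of 121 measured genes in 5 lists of the secretory pathway, 99 were in the promoter table. The 11 genes with the element had a median ratio of -0.29, with a range from -1.18 to 0.058. Of these, 10 lay below the control, 2 by at least 1.5-fold. The 88 without it had a median of -0.16, with a range from -0.96 to 0.14. Of those, 80 lay below the control, 3 by at least 1.5-fold. As 8 of the 11 are ER chaperones, the element and membership of that list cannot be told apart in these medians. Gfpt1 and Sdf2l1 had no match in this window, and Hyou1 and Manf are named without a promoter. A second form of the element (ATTGG, 1 base of any kind, CCACG) was found in 12 promoters of the table (0.0365%), among them those of Dnajb11 (-0.44) and the degradation factor Herpud1 (0.02). The site bound by XBP1, written TGACG directly followed by TGG, was found in 222 promoters (0.676%) and in 6 of 26 genes of ER to Golgi transport. The XBP1 site and the second element share the letters CCACG or their complement with the first, but none of the 99 genes held more than 1 of the 3 kinds. A match describes letters in a promoter and shows no binding.

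ER-associated degradation removes misfolded proteins, and Syvn1 is its membrane ubiquitin ligase. Syvn1 stood at 9.67 in the control pool, 9.21 with acetate, 8.88 with propionate and 9.31 with butyrate, lowest with propionate, with a ratio of -0.79. Its partner Sel1l was at -0.26. Over the list 16 of 20 members lay below the control, Syvn1 alone by 1.5-fold, and the median was -0.065. It was -0.0078 with acetate and -0.066 with butyrate. Derl3, a rhomboid-like factor of the same pathway, was at 6.30, 7.50, 6.35 and 5.87, high with acetate alone.

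Protein entry into the ER and glycan assembly were also on the lower side. All 21 measured genes of ER translocation and the signal peptidase lay below the control, by a median of -0.19 and 0 of them by 1.5-fold. The medians of this list were -0.12 with acetate and -0.0755 with butyrate, and the control was the highest pool in 17 of the 21. The signal recognition particle receptor subunit Srprb was at -0.45 and the translocon-associated subunit Ssr2 at -0.30. Of 24 genes of N-glycosylation and hexosamine synthesis 22 lay below the control (median -0.19, with -0.089 for acetate and -0.0076 for butyrate). Gfpt1, the first enzyme of hexosamine synthesis, was at 7.77, 7.46, 6.98 and 7.53 in the control, acetate, propionate and butyrate pools (-0.79), with propionate the lowest and the other acids closer to the control. The mannosyltransferase Alg2 (-0.53), the oligosaccharyltransferase subunit Ostc (-0.47) and Alg12 (-0.46) followed. In ER to Golgi vesicle transport 25 of 28 genes lay below the control (median -0.16), led by the Golgi regulator Arfgap3 at 7.38, 6.98, 6.76 and 6.92 (-0.62, and -0.58, just short of 1.5-fold, with cyclic loess normalization). The coat proteins Sec23b (-0.58) and Sec24d (-0.40) came next. Medians of the transport list were -0.062 with acetate and -0.052 with butyrate.

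Among regulators of the unfolded protein response, of 11 measured genes 8 lay below the control and 0 by 1.5-fold, with a median of -0.11. The largest ratios were those of the transcription factor Creb3l2 (-0.43) and the ER membrane protein Wfs1 (-0.39). Among the sensors, Eif2ak3 (PERK) was at -0.24, Atf6 at -0.11 and Ern1 (IRE1) at 0.03, and the transcription factor Xbp1 was at -0.22. The array reads total Xbp1, not its spliced form. Cytosolic heat shock genes had a median of 0.0071 over 12 genes.

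Genes of the exocrine pancreas were lower as well. All 16 measured pancreatic acinar markers were above the floor and below the control. Of all genes at or above the floor, 60.8% lay below the control and 0.404% were at least 1.5-fold lower. The median was -0.58, the range ran from -0.86 to -0.47, and 8 genes passed 1.5-fold, Cpb1 by a margin that cyclic loess removed (-0.57). The elastase Cela3b was at 10.16 in the control pool, 9.21 with acetate, 9.44 with propionate and 9.58 with butyrate (-0.72), and the chymotrypsinogen Ctrb1 at 11.25, 10.53, 10.64 and 10.94 (-0.61). The lipase-related Pnliprp2 was at 7.41, 6.29, 6.54 and 7.02 (-0.86). All 16 were highest in the control pool, and the mean level of the list was 9.44, 8.64, 8.83 and 9.09. Ins2 (-0.67) and Ppy (-0.59), hormones of the pancreatic islet named after their values were seen, were also at least 1.5-fold lower, both from a propionate level below the floor. Ppy lay under 1.5-fold with cyclic loess and with centred ratios (-0.58 in both). Acinar cells are themselves rich in ER, and their markers moved with the ER genes in the comparison with control.

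Against the acetate pool, another single array, 16 of 16 acinar markers were higher with propionate, by a median of 0.17. The ER chaperones were lower with propionate than with acetate in 27 of 28 cases, and the 121 genes of the 5 secretory lists in 104, with a median of -0.095, beside -0.023 over all genes at or above the floor. Against control, 110 of the 121 were lower, 7 by at least 1.5-fold and 0 higher by that fold, with a median of -0.16. In 90 of the 121 the propionate level was the lowest of the 4 pools, against 32.7% of all genes at or above the floor. How far pancreatic RNA contributed to the ratio of the ER genes to control was not tested.

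**Figure D2:**
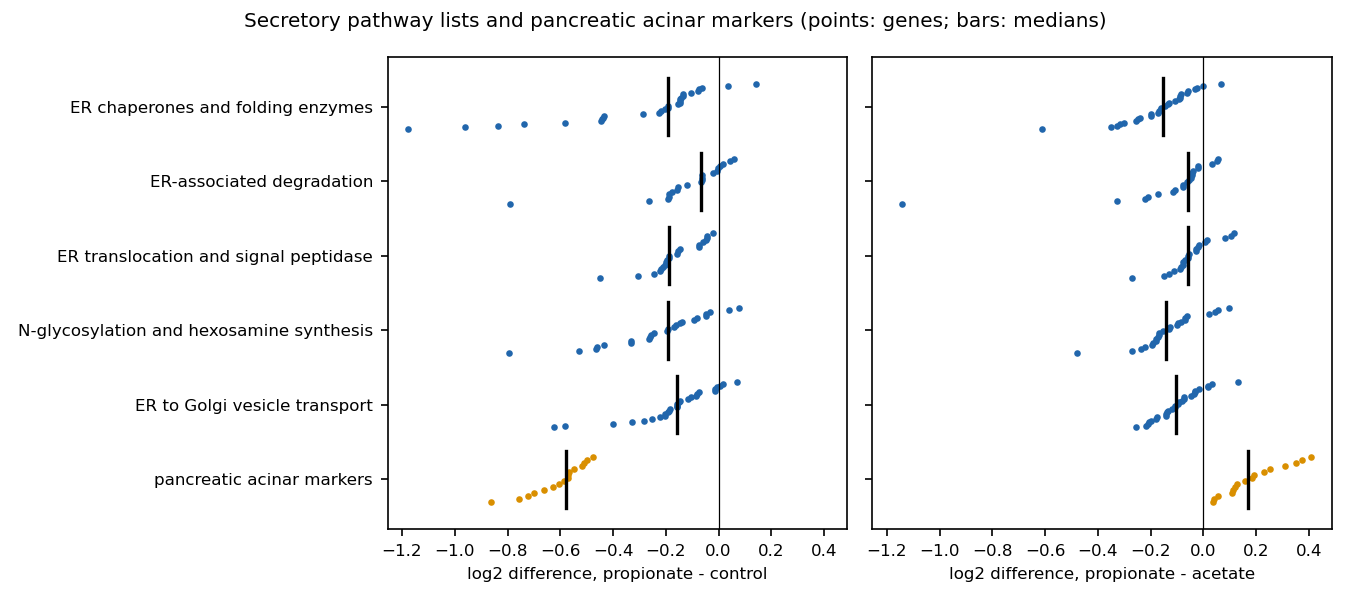
Log2 difference of the propionate pool from the control pool (left) and from the acetate pool (right) for the members of 5 secretory pathway lists (blue) and for pancreatic acinar markers (orange); points are genes and black bars list medians. The acinar markers lie below 0 on the left (median -0.58) and above 0 on the right (median 0.17), while most secretory genes lie below 0 in both.

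Macrophage genes were among the higher genes. Spic, the transcription factor of iron-recycling macrophages, stood at 6.27 in the control pool, 5.69 with acetate, 7.54 with propionate and 6.90 with butyrate (ratio 1.27, 2.41-fold). It was highest with propionate and lowest with acetate. Clec4n (dectin-2), a receptor for fungal mannans, was at 5.83, 5.63, 6.81 and 6.08 (0.98), also highest with propionate. Marco, a scavenger receptor, was at 6.45, 6.20, 7.42 and 7.85 (0.98), and Adgre1 (F4/80), a general mouse macrophage marker, at 8.10, 7.92, 8.82 and 8.86 (0.72). In both of these genes propionate and butyrate were high and acetate and control low. Lysozyme (Lyz2) was at 9.85, 10.27, 10.53 and 10.60 (0.68).

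Of 18 Kupffer cell markers, all above the floor, 15 were higher than control and 4 of these passed 1.5-fold, and the median was 0.22. Of all named genes, 47.8% were above the control, and 0.701% of those at or above the floor were at least 1.5-fold higher. The 4 past 1.5-fold were Spic (1.27), Marco (0.98), Adgre1 (0.72) and Lyz2 (0.68). Members near the control included Clec4f (-0.10), Timd4 (0.09) and Vsig4 (0.10). The complement subunits C1qb (0.26) and C1qc (0.29), the growth factor receptor Csf1r (0.31) and the lipid-binding Cd5l (0.36) lay between. Against the acetate pool 17 of the 18 were higher with propionate. The medians of this list were -0.16 with acetate and 0.51 with butyrate, each against the same control array.

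Of 27 myeloid receptors 25 were above the control, with a median of 0.39, and 7 by at least 1.5-fold, of which 6 were above the floor. They were Clec4n, Marco, the sialic acid receptor Siglece at 6.91, 6.96, 7.75 and 7.95 (0.84), the "do not eat me" receptor Sirpa at 7.89, 8.00, 8.72 and 8.34 (0.82), the Fc receptor gamma chain Fcer1g (0.70) and the integrin subunit Itgb2 (0.62), with Clec4a2 (0.69) below the floor. The toll-like receptor Tlr4, also below the floor, was at -0.20. Of all named genes, 47.8% lay above the control. The medians of the myeloid receptor list were 0.035 with acetate and 0.41 with butyrate, each against the same control array. In 18 of the 27 receptors the propionate level was below the butyrate level. Lectins of the Clec4 cluster are close in sequence, so a ratio may be shared between neighbours there.

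All 7 measured genes of MHC class II presentation were above the control (median 0.39), beside 47.8% of all named genes. This list had medians of 0.17 with acetate and 0.40 with butyrate against the same control. H2-Aa was at 7.98 in the control pool, 8.40 with acetate, 8.61 with propionate and 8.51 with butyrate (0.63), and H2-Eb1 (0.52), the invariant chain Cd74 (0.44) and H2-Ab1 (0.39) followed. Among 29 chemokines and cytokines 20 were above the control. Of the 17 at or above the floor, 3 were higher by at least 1.5-fold, beside 0.701% of all genes at or above it. Cxcl1, which attracts neutrophils, was at 7.99, 8.36, 8.90 and 8.63 (0.91) and highest with propionate. The interferon-induced Cxcl9 was at 8.00, 8.36, 8.76 and 9.11 (0.75), and Ccl5 at 6.24, 6.34, 6.83 and 7.03 (0.59), both highest with butyrate. The interferon response list had 13 of 18 genes above the control and a median of 0.034, with Cxcl9 alone at least 1.5-fold higher. Tnf (0.81), Ccl3 (0.71) and Ccl2 (0.62) were below the floor. Of 16 neutrophil and monocyte markers 8 were above and 8 below the control (median -0.033), but only 5 of the 16 were at or above the floor. B, T and NK cell markers had 14 of 17 above (median 0.15), but 15 of the 17 lay below the floor.

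Further leukocyte genes stood among the 66 higher genes outside any list, named here after their values were seen. They were the B cell and macrophage receptor Cd180 (0.84), the lipopolysaccharide-deacylating enzyme Aoah (0.83), Ms4a6d (0.82), Cd300e (0.77), the haematopoietic GTPase Rac2 (0.70), the phosphoinositide kinase subunits Pik3cd (0.71) and Pik3r5 (0.69), the integrin subunit Itgal (0.63) and Pilra (0.60). Tmsb4x, an actin-binding peptide gene abundant in leukocytes, was at 10.02, 10.25, 10.80 and 10.65 (0.78). Against the same control, Pilra (0.78) was higher still with butyrate, and Cd180 (0.46), Aoah (0.67) and Pik3r5 (0.47) were lower with butyrate than with propionate. Ms4a6d (0.87), Pik3cd (0.78), Rac2 (0.72), Cd300e (0.76) and Itgal (0.56) were close in the butyrate and propionate pools. Their levels there differed by less than 0.076, the median difference between ratios of 2 probe sets of a gene. In all, 28 of the 66 higher genes were in a list and 38 in none.

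**Figure D3:**
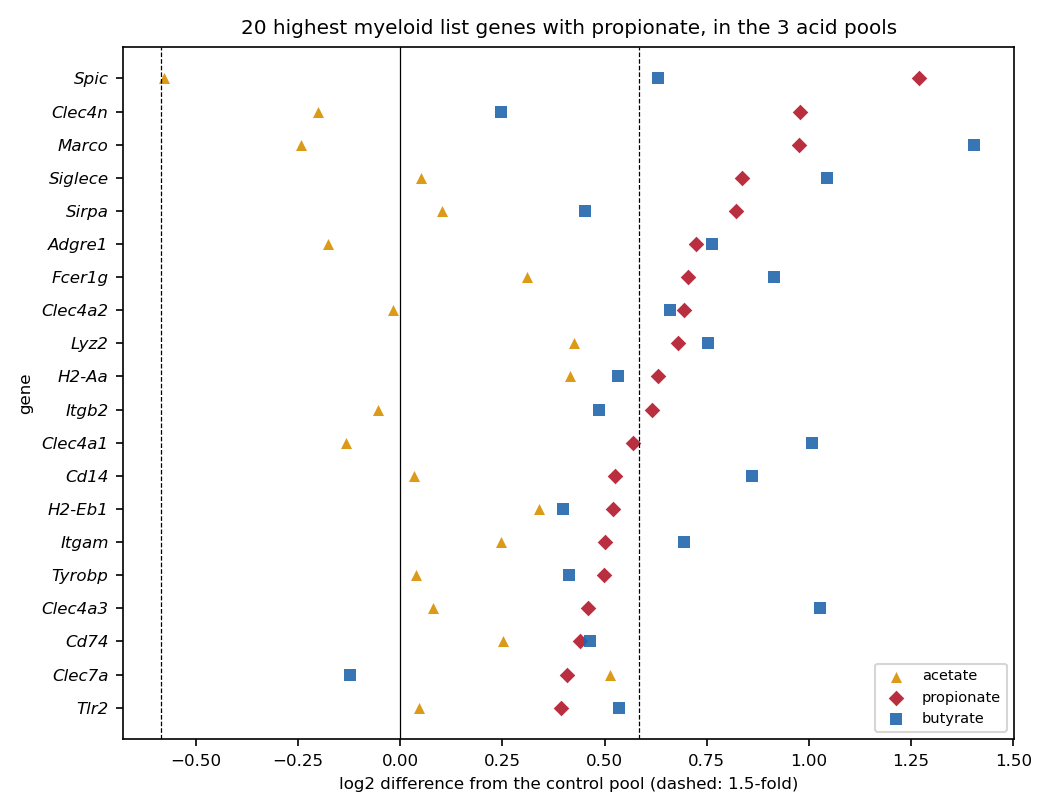
Log2 difference from the control pool (x axis) with acetate (triangles), propionate (diamonds) and butyrate (squares) for the 20 genes of the Kupffer cell, myeloid receptor and MHC class II lists with the highest propionate ratio; dashed lines mark 1.5-fold, and all 3 differences share the control array. Spic and Clec4n are highest with propionate (1.27 and 0.98), while Marco and Siglece are higher still with butyrate.

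Cyp2b9, a female-biased liver cytochrome P450, had the highest ratio of all. It stood at 5.45 in the control pool, 7.99 with acetate, 8.28 with propionate and 5.05 with butyrate, a ratio of 2.82 or 7.07-fold. Propionate and acetate were high and the other pools below the floor, so the ratio sets a measured level against one near background. Its paralog Cyp2b10, a classic target of the xenobiotic receptor CAR, was at 4.21, 5.81, 4.39 and 4.12 (0.17), high with acetate alone and below the floor with propionate. Of 19 measured CAR and PXR targets 11 were above the control, and apart from Cyp2b9 the largest upward ratio was that of Cyp2a5 (0.27). Short probes can cross-hybridise within the Cyp2b family, so which member was read is uncertain. Further genes among the 15 highest were Tmc3, a channel-like membrane protein, at 5.11, 5.01, 6.54 and 5.88 (1.43), the surface protein Ly6d at 5.93, 7.90, 7.03 and 6.22 (1.10), and the guanylin receptor Gucy2c at 4.94, 6.07, 6.13 and 5.46 (1.19). Tmc3 was highest with propionate, Ly6d with acetate, and Gucy2c was close with both. Tmc3 and Gucy2c, like 9 of the 66 higher genes in all, were below the floor in the control pool, so the size and rank of their ratios are not exact. Of 15 measured female-biased genes, 8 of them at or above the floor, 10 were above the control (median 0.10). Whatever their level, 2 of the 15 were at least 1.5-fold higher and 1 was lower by that fold (-0.74). Of 12 male-biased genes 5 were above the control.

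In the list of targets of NRF2, the activator of antioxidant genes, 19 of 21 were above the control, beside 47.8% of all named genes. The median was 0.23. The list also counts Nfe2l2, the gene of NRF2 itself (0.21), and Keap1 (-0.15). Txnrd1 (-0.0014), Gstm2 (0.0027) and Gstm4 (0.019) were close to the control. The glutathione transferase Gstm3 was at 9.95, 11.25, 10.86 and 9.72 (0.91), higher with acetate and propionate than in the other pools. Its 2 probe sets gave 0.69 and 1.13. Gclc, the catalytic subunit for the first step of glutathione synthesis, was at 10.21, 10.79, 10.70 and 10.12 (0.49), and Gsta4 was at 0.39. Hmox1, which breaks down heme, had another order, at 9.53, 9.05, 9.98 and 10.05 (0.46). The cystine transporter Slc7a11 was at 1.05, with a level under the floor in each pool. The list medians were 0.29 with acetate and -0.034 with butyrate against the same control.

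Acot2, a mitochondrial thioesterase that frees fatty acids from CoA, was at 8.71 in the control pool, 10.11 with acetate, 9.73 with propionate and 8.81 with butyrate (1.02, or 2.02-fold). Acot9, a related mitochondrial enzyme, was at 5.96, 6.89, 6.80 and 6.38 (0.84). The wider list of fatty acid oxidation genes and PPARalpha targets was balanced, with 17 of 32 above the control and a median of 0.0051. After Acot2 its largest ratios were those of the fatty acid transporter Cd36 (0.56) and Cyp4a14 (0.36). Among tubulins, Tuba8 was at 6.73, 7.87, 7.79 and 6.45 (1.06) and Tubb2a at 6.53, 7.56, 7.21 and 6.42 (0.69). Of the tubulins, 9 of 10 were above the control, beside 47.8% of all named genes. Probes of Acot and tubulin genes can likewise be shared between paralogs.

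Genes of mitosis were above the control in 18 of 18 cases (median 0.52), beside 47.8% of all named genes. At least 1.5-fold higher were 8, beside 0.776% of all named genes, but 13 of the 18 lay below the floor. Of the 5 above it, 4 were at least 1.5-fold higher, but Mki67 and Ccna2 reached the floor through the acid pools alone and were below it in the control, so their inclusion depends on the difference itself. Mki67, a marker of dividing cells, was at 5.19, 6.16, 6.04 and 6.06 (0.86), low in the control pool and close together with the 3 acids. The mitotic cyclin Ccnb2 was at 6.18, 7.31, 7.02 and 6.52 (0.84), Ccna2 at 5.12, 5.98, 5.91 and 5.85 (0.79), and the kinase Cdk1 at 5.98, 6.64, 6.64 and 6.05 (0.67). Genes of S phase had a median of 0.034, with 11 of 17 above the control and 0 by 1.5-fold.

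Stellate cell and fibroblast markers were above the control in 18 of 21 cases, beside 47.8% of all named genes, with a median of 0.27. The matrix protein Dpt was at 6.86, 7.92, 7.60 and 7.06 (0.74) and the matrix protease Mmp2 at 6.21, 7.25, 6.84 and 6.10 (0.63). Both were higher with acetate than with propionate, as were 16 of the 21. Collagens Col1a1 (0.55), Col1a2 (0.51) and Col3a1 (0.47) followed. Lrat (0.06) and Reln (0.08), expressed in quiescent stellate cells, were near the control, and the contractile genes Acta2 (-0.12) and Tagln (-0.14) were slightly below it.

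The pathway that uses propionate itself showed no ratio of 1.5-fold. Of 17 measured genes 12 lay below the control and 5 above, with a median of -0.065. Over all genes at or above the floor, 60.8% lay below the control and the median was -0.034. Pcca, the alpha subunit of propionyl-CoA carboxylase, was at 8.83 in the control pool, 8.73 with acetate, 8.60 with propionate and 8.78 with butyrate (-0.23), the lowest with propionate. The beta subunit Pccb was at 9.31, 9.36, 9.20 and 9.30 (-0.11). The epimerase Mcee was at 0.07 and the mutase Mmut at -0.01, with 9.54, 9.57, 9.53 and 9.51 in the 4 pools. Among cobalamin factors Mmachc was at -0.22, Abcd4 at -0.14, Mmab at -0.05, Mmadhc at 0.04, Lmbrd1 at 0.04 and Mmaa, below the floor, at -0.08. Acss2, which activates acetate, was at -0.23, Acss3, which can activate propionate, at -0.07, Acss1, below the floor, at -0.11, and the biotin ligase Hlcs, which loads the carboxylase, at -0.14. The succinyl-CoA ligase subunits Suclg1 (0.03), Suclg2 (0.01) and Sucla2 (-0.01) were all within 1.1-fold of the control.

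Transporters and receptors of short-chain fatty acids were likewise close to the control. The receptors Ffar2 (-0.04) and Ffar3 (0.16) had levels under the floor in every pool. The monocarboxylate transporters Slc16a1 and Slc16a7 were at 0.04 and 0.08, their partner Bsg at 0.03 and the organic anion transporter Slc22a7 at -0.11. The transporters Slc16a3 (-0.08), Slc5a8 (0.07) and Slc5a12 (0.14) and the hydroxy acid receptors Hcar1 (0.01) and Hcar2 (-0.06) were below the floor, which 4 of the 11 measured members reached.

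The counts of the next lists stand beside the 60.8% of all genes at or above the floor that lay below the control (median -0.034). Gluconeogenesis, for which propionate is a carbon source, had 13 of 19 genes below the control and 6 above, none by 1.5-fold, with a median of -0.072. Pck1, its main cytosolic control step, was at 12.77, 12.75, 12.80 and 12.77 (0.04), G6pc at -0.07 and Fbp1 at -0.04. The pyruvate carboxylase gene Pcx was at -0.16, the glucose-6-phosphate transporter Slc37a4 at -0.15 and the mitochondrial Pck2 at 0.17. The regulators Cebpa and Ppargc1a were at -0.29 and 0.13, Crtc2 at -0.13, Creb1 at -0.10, Foxo1 at 0.04 and Hnf4a at -0.01. Among enzymes and carriers that feed carbon into the pathway, Gpt2 was at -0.12, Gpt and Got1 at -0.10, Mdh1 at -0.09, Slc25a10 at -0.03, Tat at 0.03 and Slc25a11 at 0.05. Fatty acid synthesis had 15 of 22 genes below the control (median -0.081), with Pnpla3 at -0.34, the acetyl-CoA carboxylase Acaca at -0.29 and Fasn at -0.20. Genes of the bile acid list lay below the control in 19 of 23 cases with a median of -0.032, and pericentral markers in 12 of 13 with a median of -0.062, differences close to that of all genes at or above the floor.

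Other genes stood among the lowest. Moxd1, a monooxygenase-like gene of the male-biased list, was at 8.58, 7.55, 7.26 and 8.18 (-1.32), low with propionate and acetate. Dmbt1, a mucosal scavenger glycoprotein, was at 8.60, 8.29, 7.48 and 7.88 (-1.12), and Btbd19 at 7.05, 7.10, 5.96 and 6.52 (-1.09), both lowest with propionate. The trefoil peptide Tff2 was at 6.67, 5.54, 5.76 and 5.96 (-0.92), high in the control pool alone. The liver transcription factor Onecut1 (HNF6) was at 9.83, 9.79, 9.16 and 9.66 (-0.68). Named after their values were seen, the tRNA methyltransferase genes Trmt61a and Mettl1 were both at -0.72, Trmt61a from a propionate level below the floor. For Wtap (-0.70), named likewise, part of the RNA m6A writer, the 2 probe sets disagreed, at -1.32 with a mean level of 5.30 and at -0.08 with a mean level of 10.0. Over 503 genes with 2 probe sets at or above the floor, their ratios differed by a median of 0.076, and 3 genes differed by 1.5-fold or more.

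**Figure D4:**
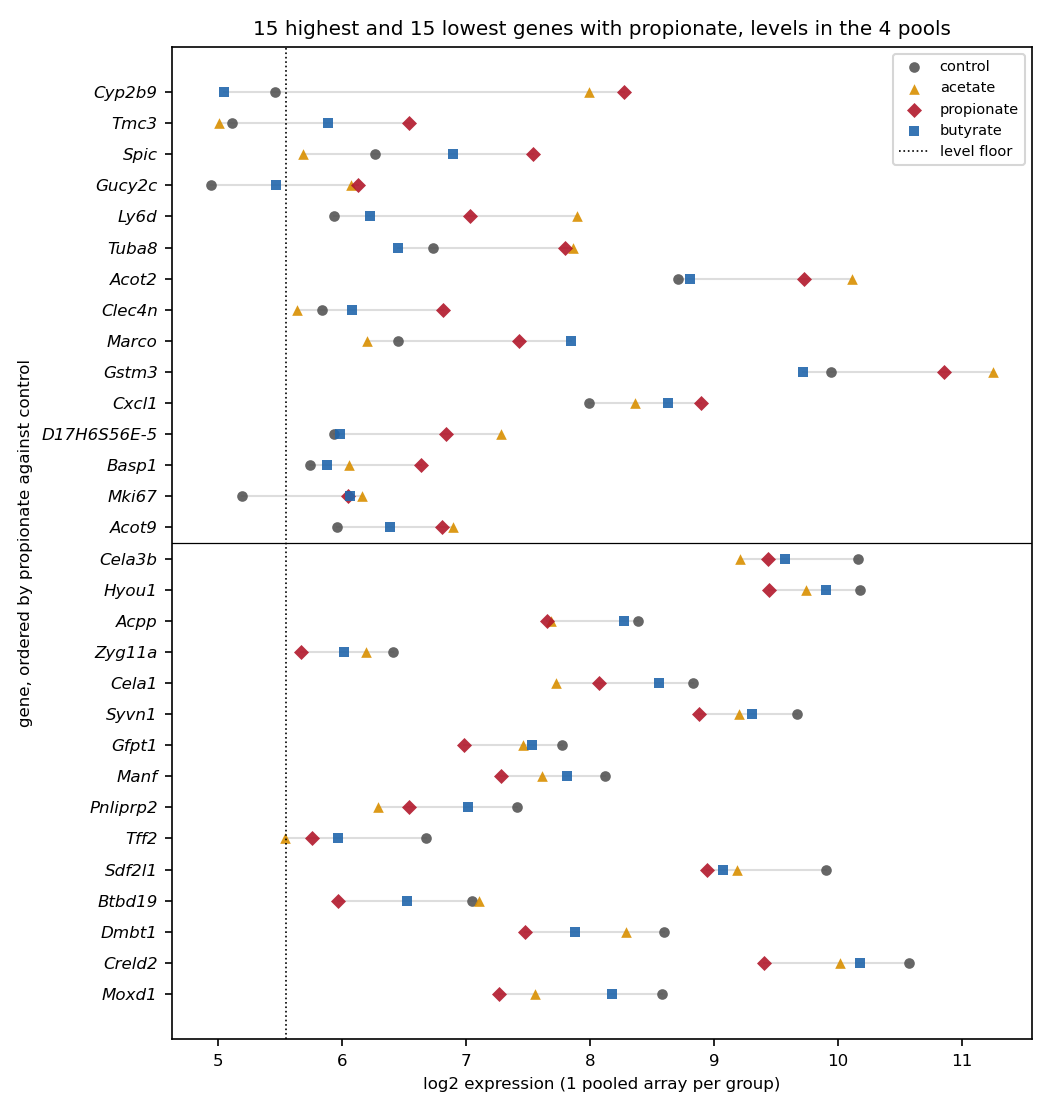
Log2 levels (x axis) in the control, acetate, propionate and butyrate pools of the 15 genes with the highest (above the line) and the 15 with the lowest ratio of propionate to control (below it) among genes at or above the floor, 1 pooled array per group. Cyp2b9, Ly6d, Acot2 and Gstm3 are high with acetate as well, whereas Creld2, Gfpt1 and Btbd19 have their lowest level with propionate.

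Among genes at or above the floor, and against the mean of the other 3 pools, propionate stood highest for Cyp2b9 (2.11), the muscle troponin Tnnt3 (1.29), Spic (1.25) and Tmc3 (1.20), and lowest for the mucin Muc2 (-1.24), Lypd8 (-1.19), Car1 (-0.97), Btbd19 (-0.93), Creld2 (-0.85) and Moxd1 (-0.84). Muscle genes were low, and Muc2, Lypd8 and Car1 high, in the butyrate pool alone. Relative to the control, propionate gave 0.42 for Tnnt3, -0.22 for Muc2, -0.16 for Lypd8 and -0.40 for Car1. By this measure 16 of the 66 higher and 7 of the 38 lower genes were still at least 1.5-fold apart.

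**Figure D5:**
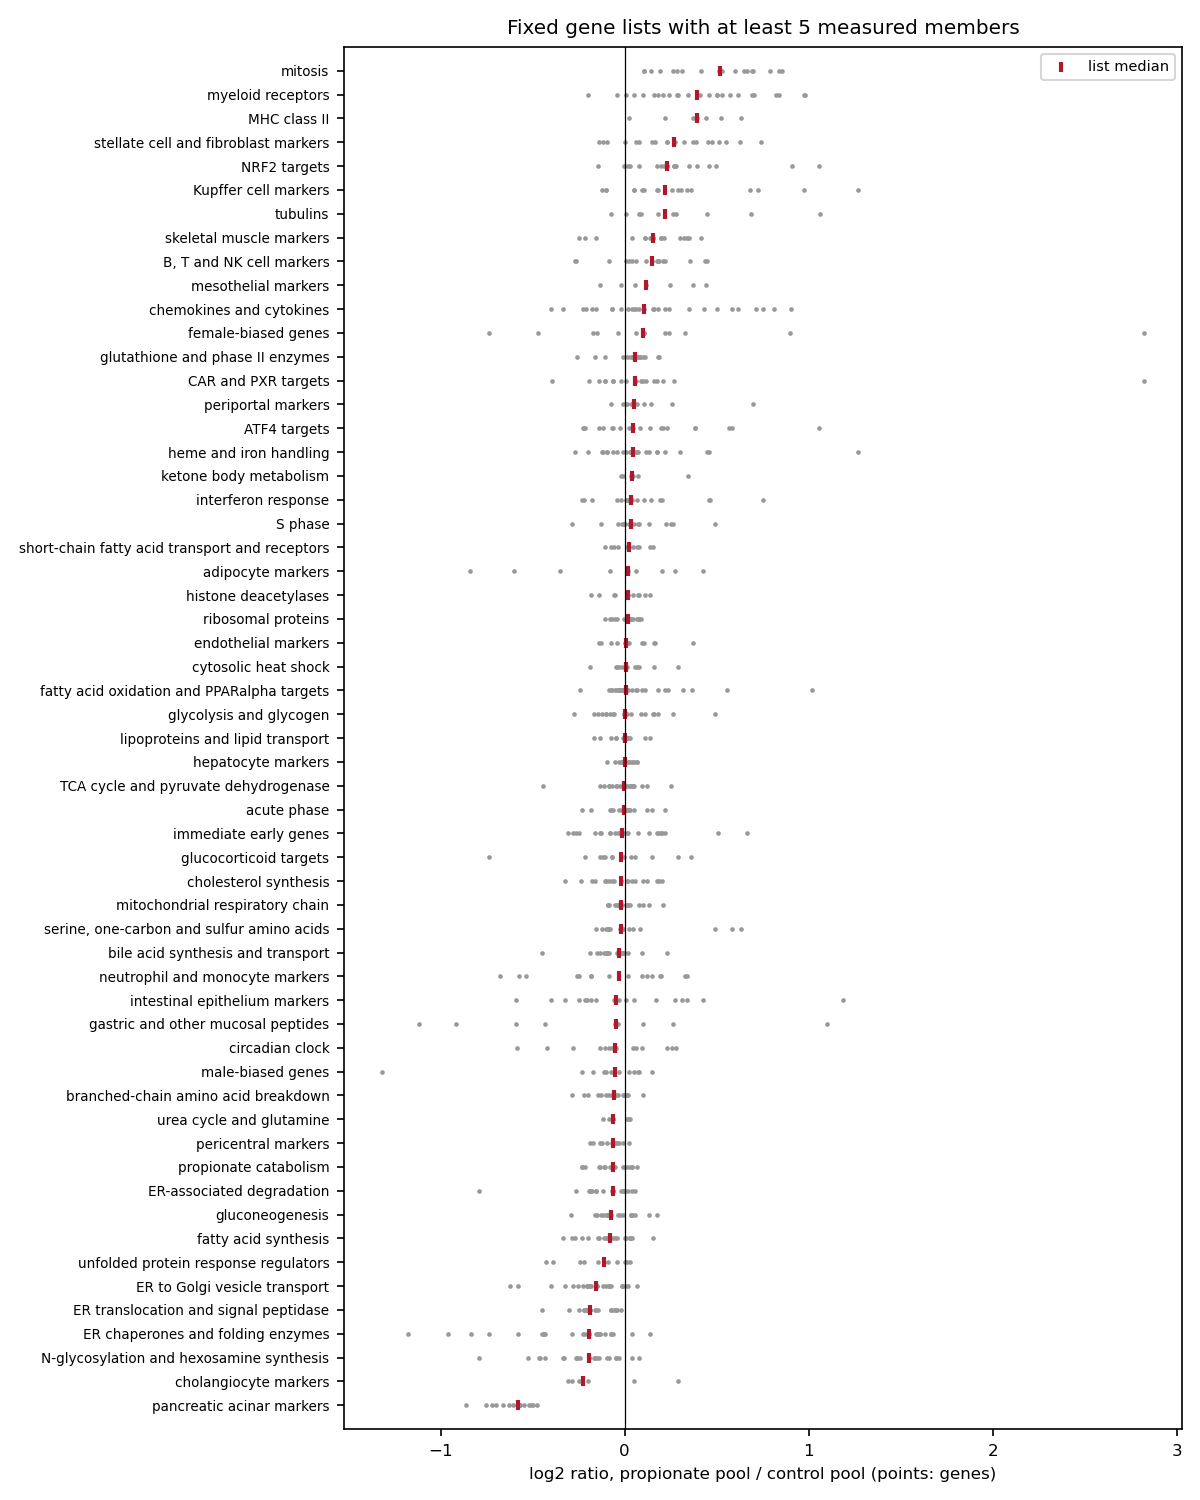
Log2 ratio of the propionate to the control pool (x axis) for the members of 57 gene lists with at least 5 measured genes, ordered by list median (red ticks); grey points are genes, whatever their level. Mitosis, myeloid receptors and MHC class II have the highest medians (0.52, 0.39 and 0.39), and pancreatic acinar markers the lowest (-0.58). With butyrate, not drawn, the medians of myeloid receptors and MHC class II are 0.41 and 0.40 against the same control.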

How the data were processed

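Pooled liver RNA of 22 mice was measured on 4 biotin-labelled whole-transcript arrays, of which the propionate and control arrays are compared here. The deposited table holds log2 expression per probe set, running from 1.60 to 13.7. The authors used RMA, per the submitters' processing notes, with a version and settings not given in the sources here.

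Names came from the platform annotation held by GEO. Of 35556 probe sets, 21218 had 1 symbol, 1881 several and 12457 none, and those with several or none entered no gene. Probe sets of a symbol were averaged (1386 genes had more than 1). Ratios were computed with Python 3.11.15 and pandas 2.3.3, and cyclic loess with limma 3.58.1 in R 4.3.3. The counting was tested on simulated data. With 1 array per group the number of arrays limits the precision.

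The comparison, the 58 gene lists (936 measured genes) and the promoter search were chosen with earlier results of these data known. Genes were named by rule: the 15 highest and 15 lowest ratios, list members at 1.5-fold, up to 5 members per list by absolute ratio, all members of the propionate, transport and gluconeogenesis lists, the 10 furthest each way from the mean of the other 3 arrays, and those nearest the floor and the 1.5-fold mark; further genes, such as other members of the ER, Kupffer cell, myeloid receptor and stellate lists, Cyp2b10 and those so marked, were chosen after their values were seen, and not every gene the rule allows is printed. Predicted genes, olfactory and vomeronasal receptors, microRNAs and small RNAs were left out of the naming by rank. Alternatives changed the normalization, centring, floor, fold, probe set rule and comparator.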

Additional observations from a re-analysis of the deposited data

Results flagged for a closer look

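In 4 of the genes at least 1.5-fold higher with propionate, another acid lay at least 1.2-fold on the other side of the control. Cyp2b9 was at 2.82 with propionate and -0.41 with butyrate. Spic was at 1.27 with propionate and -0.58 with acetate. Tuba8 was at 1.06 with propionate and -0.28 with butyrate, and Pcolce2, a procollagen-processing enhancer, at 0.74 with propionate and -0.27 with acetate. With 1 array per pool these differences between acids were not tested, and each pair of ratios shares the control array.

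Probe sets without a single gene symbol entered no comparison of genes, and some of them stood high. Among 835 probe sets with several symbols at or above the floor, the highest ratio of propionate to control was 2.35, and 4 lay above 1.9. Among 3980 with no symbol the highest was 1.30 and the lowest -1.49, with 65 at least 1.5-fold higher (1.63%) and 150 lower (3.77%).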

How the results depend on the processing

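The counts of 66 higher and 38 lower genes became 146 and 92 with no floor, 16 and 18 with the upper quartile as the floor, 7 and 4 at 2-fold, and 31 and 11 against the mean of the other 3 arrays. Against the acetate array, an alternative chosen after seeing the data, they were 39 and 13. With cyclic loess (74 and 33), centring (67 and 35), the floor in both arrays (57 and 34), the highest probe set (68 and 37) and no genes of other tissues (59 and 30), counts stayed within 1.5 times, as they did against the butyrate array (57 and 33) and with the floor in 1 of the 2 arrays (86 and 51), both also chosen after seeing the data. Of the 104 genes counted, 99 were still counted with cyclic loess and 23 against the mean of the other 3 arrays. Those lost with loess were Arfgap3, Ccdc167, Cpb1, Ppy and Scfd1; Ccl2, below the floor, also went under 1.5-fold. No value at 1.5-fold changed sign under these settings. The medians of all 58 lists moved little with loess (ER chaperones -0.17, degradation -0.048), but against the other 3 arrays 10 moved, among them mitosis (0.26), myeloid receptors (0.21) and acinar markers (-0.21). No replicate could be left out, and no paired analysis was possible because each group has 1 array. Levels near background limit ratios of genes below the floor.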

Other observations

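Below the level floor, 29 genes had 1 of the 2 arrays above it and differed by at least 1.5-fold. Predicted genes and the other classes left out of the naming by rank are not counted in the 29. The genes given here were chosen after their values were seen. Of those above the floor in the control pool alone, 4 genes expressed in epithelia are given, and they are not all such genes. The keratin Krt4 was at 6.83 in the control pool, 4.68 with acetate, 3.80 with propionate and 3.97 with butyrate. The keratin Krt13 was at 6.30, 5.00, 4.47 and 4.22, the defensin Defb4 at 5.80, 4.06, 2.92 and 3.48, and the intestinal phosphatase Akp3 at 6.22, 4.68, 4.75 and 4.99.

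Other genes were below the floor in the control pool. Gpnmb, a glycoprotein of lipid-laden macrophages, was at 3.84 in the control pool, 6.99 with acetate, 6.37 with propionate and 4.39 with butyrate. The lectin Cd209f was at 3.42, 3.43, 5.62 and 3.28, above the floor with propionate alone. Aif1, a cytoplasmic marker of macrophages, was at 4.89, 5.10, 5.68 and 5.44, and the toll-like receptor Tlr1 at 5.00, 5.17, 5.78 and 5.63.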
